A study of Homo sapiens with 2 samples.

Results

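MDA-MB-231 is a triple-negative breast cancer cell line. Its untreated chromatin was profiled by CUT&Tag, in which an antibody directs a transposase to cut DNA next to its target, and the study made 1 library with an antibody against RUNX2 and 1 with an antibody against MTA1. Each library came with 1 list of peaks, each peak with a position and a score, and no control library was analysed here. The regions described are the RUNX2 peaks that had a score of at least 20, overlapped by at least 1 bp an MTA1 peak with a score of at least 20, and were centred within 1 kb of either end of a protein-coding gene on chromosomes 1 to 22 and X. There were 1247 such strong shared peaks among 61694 RUNX2 peaks (2.02%). They lay at the ends of 1545 of 19970 protein-coding genes (7.74%), and these are called marked genes. The regions were chosen by their scores in both lists and by the distance to a gene end, so neither is a finding about them.

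RUNX2 is a transcription factor of the Runt family that binds short sites with the core TGTGGT and is best known for driving bone formation. MTA1 is a subunit of NuRD, a complex that joins histone deacetylation to chromatin remodelling. The study asked whether both proteins meet at the same regulatory regions in this cell line. Promoters of human genes often carry the CCAAT box, the site of the trimeric factor NF-Y, and the GC box, a site of SP and KLF factors.

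The sequences that follow are the 250 bases before the start of the genes NAPA, STAT3, PJA2, TIMM17A, SLC2A8 and ELL, the highest-ranked strong shared peaks whose RUNX2 peak overlapped these bases, where the RefSeq window began at the outer start of the gene and no other annotated gene lay in them. They were taken from RefSeq (GRCh38.p14), run 5′ to 3′ on the strand of the gene and end at the base before the start. Capitals mark the CCAAT box (CCAAT or, on the other strand, ATTGG) and the RUNX core (TGTGGT or ACCACA), the motifs to which the promoter results refer. The positions are chr19:47515064-47515313 on the minus strand for NAPA, chr17:42388443-42388692 on the minus strand for STAT3, chr5:109409975-109410224 on the minus strand for PJA2, chr1:201955253-201955502 on the plus strand for TIMM17A, chr9:127396919-127397168 on the plus strand for SLC2A8 and chr19:18522071-18522320 on the minus strand for ELL.
NAPA: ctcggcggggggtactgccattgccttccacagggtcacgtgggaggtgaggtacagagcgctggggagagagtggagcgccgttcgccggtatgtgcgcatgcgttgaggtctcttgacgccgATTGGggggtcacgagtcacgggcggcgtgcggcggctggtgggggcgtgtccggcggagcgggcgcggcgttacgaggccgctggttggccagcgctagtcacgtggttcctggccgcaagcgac
STAT3: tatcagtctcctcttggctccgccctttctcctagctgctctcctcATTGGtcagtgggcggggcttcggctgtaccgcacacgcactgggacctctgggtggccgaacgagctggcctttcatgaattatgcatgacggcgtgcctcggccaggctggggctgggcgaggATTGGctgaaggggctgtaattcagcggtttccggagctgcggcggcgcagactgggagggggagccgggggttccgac
PJA2: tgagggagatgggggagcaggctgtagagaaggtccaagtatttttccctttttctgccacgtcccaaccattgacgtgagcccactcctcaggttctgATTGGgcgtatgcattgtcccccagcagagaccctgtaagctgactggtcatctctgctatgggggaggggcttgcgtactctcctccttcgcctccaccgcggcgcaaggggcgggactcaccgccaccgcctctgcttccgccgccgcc
TIMM17A: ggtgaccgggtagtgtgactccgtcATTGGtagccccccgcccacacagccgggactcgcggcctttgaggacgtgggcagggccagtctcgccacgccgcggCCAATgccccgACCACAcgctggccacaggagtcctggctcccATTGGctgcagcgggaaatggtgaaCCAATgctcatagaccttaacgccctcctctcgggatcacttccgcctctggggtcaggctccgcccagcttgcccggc
SLC2A8: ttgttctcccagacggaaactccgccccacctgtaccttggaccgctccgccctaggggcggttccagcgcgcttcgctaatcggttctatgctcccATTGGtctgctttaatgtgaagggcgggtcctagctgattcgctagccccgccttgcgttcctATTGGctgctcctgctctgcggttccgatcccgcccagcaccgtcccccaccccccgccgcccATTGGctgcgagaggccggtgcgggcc
ELL: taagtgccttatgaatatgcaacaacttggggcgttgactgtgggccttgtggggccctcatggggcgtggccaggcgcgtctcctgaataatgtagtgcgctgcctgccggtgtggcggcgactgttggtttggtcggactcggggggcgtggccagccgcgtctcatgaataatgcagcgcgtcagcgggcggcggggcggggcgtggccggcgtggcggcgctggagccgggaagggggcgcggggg

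CCAAT boxes were found in 5 of these 6 promoters. The TIMM17A promoter held 4, the first bases of which lay 225, 147, 104 and 79 bases before the start, and it was the only one of the 6 with a RUNX core. SLC2A8 held 3 boxes, STAT3 held 2 and NAPA and PJA2 held 1 each. The ELL promoter held neither motif, although its MTA1 peak was among the 5 with the highest scores.

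The strong shared peaks were a small part of the overlap between the lists. A score of at least 20 was reached by 7943 RUNX2 peaks (12.9%) and 5231 MTA1 peaks (12.3% of 42673). Of these RUNX2 peaks, 2934 overlapped an MTA1 peak that also reached 20, and 1247 of the 2934 (42.5%, exact 95% interval 40.7 to 44.3) were centred at a gene end. Among the 5009 other RUNX2 peaks with a score of at least 20 the share at a gene end was 11.6% (10.7 to 12.5), and among the 25060 overlapping pairs of which at least one score was under 20 it was 27.2% (26.6 to 27.7). The last kind gave 6808 lower shared peaks at gene ends, which serve as the comparison. With 1 library per antibody no test between conditions was possible, and all intervals cover the counting of peaks or genes only, not the error between cultures. The read depth behind the scores is unknown.

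The RUNX2 scores of the strong shared peaks ran from 20.02 to 103 with a median of 29.2, and the MTA1 scores from 20.1 to 96.2 with a median of 33.2. A score is read within its own list, since its scale was not stated. At strong shared peaks away from gene ends the median RUNX2 score was 34.1 and the median MTA1 score 27.7, so that the peaks at gene ends had the lower RUNX2 and the higher MTA1 median. Over the 1247 peaks the scores of the 2 lists ranked together weakly (Spearman rho 0.17, a description over peaks of the same pair of libraries). The choice of peaks cut both scores at 20, so this value does not show how they rank together over all shared peaks. In 369 of them (29.6%) the RUNX2 peak stood higher in its list than the MTA1 peak in its own.

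**Figure D1:**
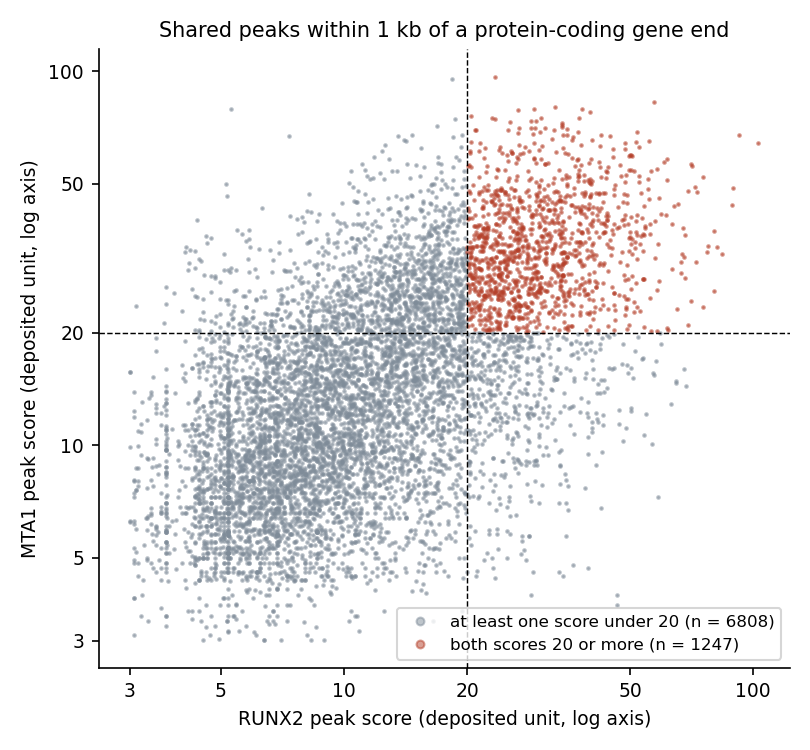
RUNX2 score (x, log axis) against the score of the overlapping MTA1 peak (y, log axis) for every shared peak within 1 kb of a protein-coding gene end, with dashed lines at the limit of 20. The 1247 strong shared peaks fill the upper right corner and the 6808 lower shared peaks the rest, with no gap between them at the limit.

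The limit of 20 cut through a continuous range of scores. The peaks closest above it were at PPP1R21 and ZNF527, both with a RUNX2 score of 20.02, and at the pair ATP6V1D and EIF2S1 with 20.05. Closest below it were the peaks at PARL and TNRC6B, both with an MTA1 score that rounded to 20 but lay below it, and at IVD with an MTA1 score of 19.99. A peak at NT5DC3 also fell just outside, with a RUNX2 score of 59.26 beside an MTA1 score that likewise rounded to 20. In 522 of the 1247 (41.9%) at least one score was under 25, and in 23 (1.84%) both were at least 50.

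The peak that ranked highest in both lists together was at NAPA, which encodes the vesicle fusion protein alpha-SNAP. It had a RUNX2 score of 92.3 and an MTA1 score of 67.6. This peak spanned 47515015 to 47515601 on chromosome 19, with bases counted from 1, and was centred at -245 bp from the start. CD55, a regulator that protects cells from complement, followed with 103 and 64.2, the highest RUNX2 score of all strong shared peaks. Next came the peak near the starts of AP4B1, a subunit of a vesicle adaptor, and DCLRE1B, a nuclease of telomere protection, with 70.6 and 56.6. Vesicle traffic, mitochondrial import and control of transcription were all found among the leading genes, which were listed by rank and not by function.

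Regulators of transcription in the first 25 were STAT3, the effector of cytokine signalling, with a RUNX2 score of 61.5 and an MTA1 score of 58.1, TRIM28, the corepressor of KRAB zinc finger proteins, with 61.6 and 51.0, and ELL, an elongation factor of RNA polymerase II, with 57.1 and 82.5. PHF12, a subunit of a Sin3 deacetylase complex, had 55.5 and 65.2. CTNNBIP1, an inhibitor of beta-catenin, had 72.9 and 47.5. These proteins act at different steps, from the signal at the membrane to elongation of the transcript.

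Mitochondrial import was represented by TIMM17A, a channel subunit of the inner membrane, with 89.0 and 48.8, and by TIMM44, which tethers the import motor, with 56.3 and 54.2. Protein turnover was represented by BTRC, the substrate receptor of an SCF ubiquitin ligase, with 70.8 and 55.9, the ligase PJA2 with 60.6 and 57.2, COPS4 of the COP9 signalosome with 55.4 and 51.5, and PSMC4, an ATPase of the proteasome, with 52.1 and 68.9. RRM2B, the p53-induced subunit of ribonucleotide reductase, had 69.3 and 47.9, and MDC1, an adaptor of the DNA damage response, had 55.2 and 48.3. The first 25 also held SPAG4, SLC2A8, SECISBP2, SLC39A13 and the pairs SAC3D1 and SNX15, DRC10 and TPCN1, and PPP2R5B and ATG2A, with RUNX2 scores between 52.6 and 71.9 and MTA1 scores between 45.5 and 62.6.

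Each list taken alone ranked the genes differently. The 5 highest RUNX2 scores were at CD55, NAPA, TIMM17A, the uncharacterised LOC124903573 (88.7) and SLC3A2 (84.0), the heavy chain of amino acid transporters. The 5 highest MTA1 scores were at the pair VCPIP1 and C8orf44-SGK3 (96.2), ELL (82.5), the pair TNFAIP1 and IFT20 (80.1), ZNF143 (79.3), itself a promoter-binding factor, and the pair HMBOX1 and INTS9 (79.2). No peak stood among the first 5 of both lists.

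Nearly all strong shared peaks lay at the start of a gene and not at its far end. The start was known for the genes at 1087 of the peaks, and 1057 of these (97.2%, 96.1 to 98.1) were within 1 kb of a start, against 94.3% (93.7 to 94.9) of lower shared peaks. The remaining 30 lay at a far end only, and 160 further peaks had no gene with a known start. EIF4G1, the scaffold of the cap-binding complex, had both kinds: a peak centred 3 bp before its start with scores of 20.2 and 30.4, and a stronger one 622 bp before its far end with 50.2 and 59.6. Other far-end peaks were at the actin-severing protein SCIN, with a RUNX2 score of 80.4 and an MTA1 score of 25.9, at the arrestin ARRB2 with 58.6 and 34.5, and at ANXA5 with 41.4 and 27.1. Starts of shorter transcripts inside a gene were not counted as starts.

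The centres of strong shared peaks lay before the start more often than those of lower shared peaks. Their median distance was 128 bp before the start, with quartiles 202 and 37.0 bp before it, while the median of lower shared peaks was 57.5 bp before the start. The centre was before the start in 79.7% (77.1 to 82.0) of strong and 66.5% (65.2 to 67.7) of lower shared peaks. The stretch from 50 to 250 bp before the start held 57.1% (54.1 to 60.2) of strong and 41.4% (40 to 42.7) of lower shared peaks. Within 250 bp of the start on either side the shares were close, at 76.4% (73.8 to 79.0) and 75.2% (74.0 to 76.3). Strong shared peaks were also wider, with a median RUNX2 width of 417 bp against 231 bp, and the part of width in this shift was not tested.

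**Figure D2:**
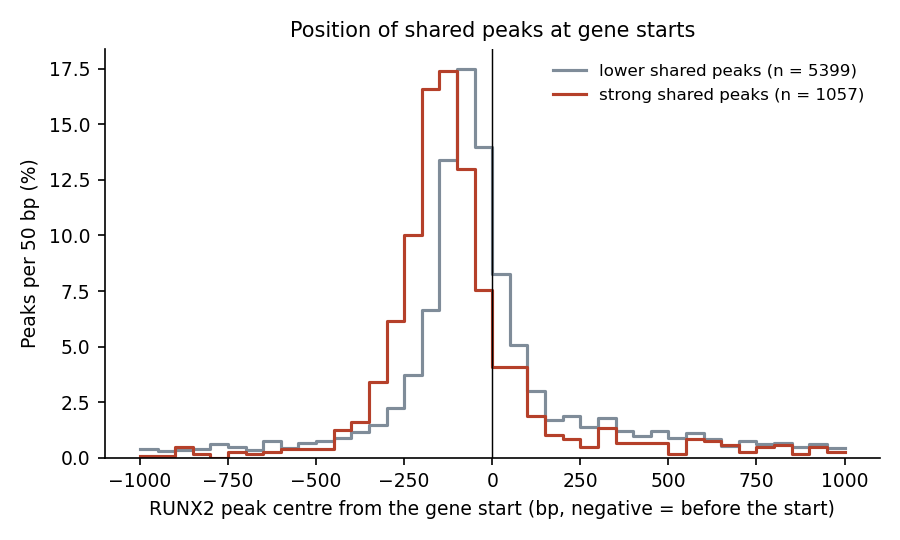
Share of peaks per 50 bp (y, %) by distance of the RUNX2 peak centre from the gene start (x, bp), for 1057 strong and 5399 lower shared peaks. Both kinds crowd just before the start, and the strong shared peaks are shifted further upstream, with medians of 128 and 57.5 bp before the start.

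Many strong shared peaks sat near the ends of more than 1 protein-coding gene. Ends of at least 2 protein-coding genes were within 1 kb of 310 of the 1247 (24.9%, 22.5 to 27.4), against 18.6% (17.6 to 19.5) of lower shared peaks. In 173 of the 1057 at starts (16.4%, 14.2 to 18.7) the starts lay on both strands, against 13.6% (12.7 to 14.5), with intervals that overlap. In these 173 the median distance from the minus-strand to the plus-strand start was 224 bp (quartiles 69.0 and 314). The distance is signed and is negative where the genes overlap at their starts, as for AP4B1 and DCLRE1B (-409 bp). The pairs included SUFU, a brake of hedgehog signalling, with the dynactin subunit ACTR1A (RUNX2 score 49.6, MTA1 score 54.5, and a further peak with 40 and 46), the DNA damage kinase ATM with the histone gene regulator NPAT (37.3 and 52.1), and the repair protein XPC with the RNA-binding LSM3 (35.6 and 46.3). Because 1 peak can mark several genes, marked genes are not independent of each other. In the other direction, 23 genes had 2 or more strong shared peaks.

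Marked genes were compared over 65 gene lists, most of them taken by symbol. In 11 lists the interval of the marked share lay above the 7.74% of all protein-coding genes, in 6 below, and in 48 it held that value. Relative to genes with a shared peak of any score, of which 18.7% were marked, translation initiation factors alone had an interval above. For the other 10 lists the interval held 18.7%, and in small lists it was wide: AP-1 factors had 44.4% (13.7 to 78.8) and p53 pathway genes 38.9% (17.3 to 64.3). Below 18.7% lay the intervals of 2 lists, replication-dependent histones (0%, 0 to 13.7) and mitochondrial ribosomal proteins (7.41%, 2.06 to 17.9). The calls of lists above all genes depended on the score limit. At a limit of 15 the calls of AP-1 factors, TMEM proteins and respiratory chain subunits were lost, and at a limit of 30 those of 9 of the 11 lists, all but translation initiation factors and TMEM proteins. Members of a list can share a peak with neighbours, and the lists overlap in part.

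Translation initiation factors, which bring the ribosome to the start codon, had the highest share, with 18 of 55 marked (32.7%, 20.7 to 46.7) and 40.9% (26.3 to 56.8) of those with any shared peak. They included EIF4G1, EIF2B4 of the eIF2 exchange factor (36.2 and 32.4, a peak also near SNX17), EIF5A (27.4 and 34.1), EIF3D, EIF3H, EIF3I, EIF3J, EIF4B, EIF5 and EIF2S1. Taken by symbol, the list also holds EIF2AK3, a stress kinase that phosphorylates eIF2, and EIF4E1B. Cytosolic ribosomal proteins had 15 of 84 marked (17.9%, 10.4 to 27.7), led by RPL18 (43.8 and 53.9, in a peak shared with the sphingosine kinase gene SPHK2) and RPL27 (42.1 and 42.3). A further 61 of the 84 had only a lower shared peak. The 15 include the ribosomal-protein-like genes RPL3L and RPL7L1, and RPL41, whose peak lay at its far end and at the start of ZC3H10. With gene starts only, this list was no longer above all genes. Mitochondrial ribosomal proteins had 4 of 77 marked (5.19%, 1.43 to 12.8) and 50 with a lower shared peak only, and the difference between both kinds of ribosomal protein was not tested.

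RNA-processing genes formed a large group. Of 111 splicing factors and other RNA-binding proteins in the list, 23 were marked (20.7%, 13.6 to 29.5), with HNRNPR (53.4 and 40.5) and SF3B2 of the U2 particle (45.8 and 48.5) first. DEAD and DEAH box proteins, which unwind RNA, had 11 of 53 marked (20.8%, 10.8 to 34.1), with DHX34, a factor of nonsense-mediated decay, at 45.7 and 38.9 and DDX17 at 35.0 and 31.9. Chromatin modifiers had 16 of 77 marked (20.8%, 12.4 to 31.5). Among them were the histone demethylases KDM4B (67.3 and 38.0) and KDM1A (27.0 and 28.3), the latter known to work with NuRD, and the acetyltransferase EP300 (38.1 and 34.6, with its centre at -946 bp from the start).

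Signalling and growth genes were marked in smaller numbers. AP-1 factors had 4 of 14 marked (28.6%, 8.39 to 58.1): JUND (34.1 and 72.6), JUN (32.7 and 69.6), FOSL2 (30.2 and 26.5) and ATF2 (28.7 and 31.4). In JUN and JUND the MTA1 score was well above its median over strong shared peaks and the RUNX2 score only a little above its own. The p53 pathway had 7 of 27 (25.9%, 11.1 to 46.3), among them RRM2B, XPC and the p53 inhibitor MDM4 (35.4 and 34.7). The PI3K, AKT and mTOR list had 7 of 30 (23.3%, 9.93 to 42.3), with the kinase AKT2 at 44.1 and 55.5, the mTOR activator RHEB at 37.7 and 34.9 and the catalytic subunit PIK3CA at 21.8 and 43.0. These lists are small and their intervals wide.

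Actin and adhesion genes had 9 of 49 marked (18.4%, 8.76 to 32), including the myosin heavy chain MYH9 (52.0 and 36.4), the integrin activator TLN1 (32.6 and 39.4, a peak shared with CREB3) and SRF, the factor that drives many cytoskeletal genes (32 and 26.9). Respiratory chain and ATP synthase subunits had 13 of 84 (15.5%, 8.51 to 25), with NDUFA11 at 57.5 and 39.7 and ATP5F1B at 37.8 and 42.4. Genes with a TMEM symbol, which shows only that the protein spans a membrane, had 28 of 232 (12.1%, 8.17 to 17.0). ZNF zinc finger genes stood near the background, with 45 of 510 (8.82%), and solute carriers had 20 of 379 (5.28%).

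Gene lists of tissue-restricted function were rarely marked. Olfactory receptors had 0 of 392 marked, which allows a share of up to 0.765%, potassium channels 0 of 95 (up to 3.16%), chemokines and interleukins 0 of 73 (up to 4.11%), keratins 0 of 55 (up to 5.45%) and FOX, SOX and PAX factors 1 of 79, FOXN2. These limits are 3 counts of the list, and the exact intervals drawn for the lists reach further, to 0.937% for olfactory receptors and 3.81% for potassium channels. For these 5 lists shared peaks of any score were also few, from 2 olfactory receptor genes with a lower shared peak to 16 among FOX, SOX and PAX factors. Relative to genes with any shared peak, the interval of each of these 5 lists held the background of 18.7%. Replication-dependent histones, made in S phase, had 0 of 69 marked (up to 4.35%), although 25 had a lower shared peak. These genes encode closely similar proteins, and whether reads at their ends could be placed at more than 1 site was not tested, so this count is uncertain. The list of bone genes had 0 of 20 marked, that of epithelial-mesenchymal transition genes 0 of 25 and that of luminal breast genes 0 of 16, and with so few genes their intervals held the background of 7.74%. HOX genes had 0 of 39 marked and no shared peak of any score at their ends.

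For the machinery the study dealt with, every list was small and its interval held the 7.74% of all genes. Of 15 NuRD subunits 2 were marked (13.3%, 1.66 to 40.5), the zinc finger proteins GATAD2B (48.4 and 38.8) and GATAD2A (39.6 and 56.7), and 8 more had a lower shared peak. The RUNX family and its cofactors had 1 of 11 (9.09%, 0.230 to 41.3), the Groucho corepressor TLE1 (28.9 and 28.8). The list of CUL4 ligase subunits and substrate receptors had 5 of 26 (19.2%, 6.55 to 39.4), all of them receptors: DCAF7, DCAF13, DCAF15, DCAF17 and DTL. In a list of 15 genes that the study named as targets or as changed by RUNX2 depletion, 1 was marked (6.67%, 0.169 to 31.9), the chaperone HSP90B1 (26.5 and 34.8). Another 12 of the 15 (80.0%) had a lower shared peak only, and 2 had none. Over all protein-coding genes 41.3% had a shared peak of any score at an end. EGR1, an immediate early factor, had scores of 13.0 and 43.0 and the initiation factor subunit EIF3F 15.8 and 32.4, so both reached 20 in the MTA1 list only. SOD2, a mitochondrial superoxide dismutase, had 9.94 and 9.88, BAX, which permeabilises mitochondria in apoptosis, 9.03 and 17.6, and PPARA and NEURL1 had no shared peak within 1 kb of an end. The housekeeping gene ACTB had 7.87 and 14. The study picked these genes from its own experiments in this cell line, so the counts for this list are no independent evidence.

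**Figure D3:**
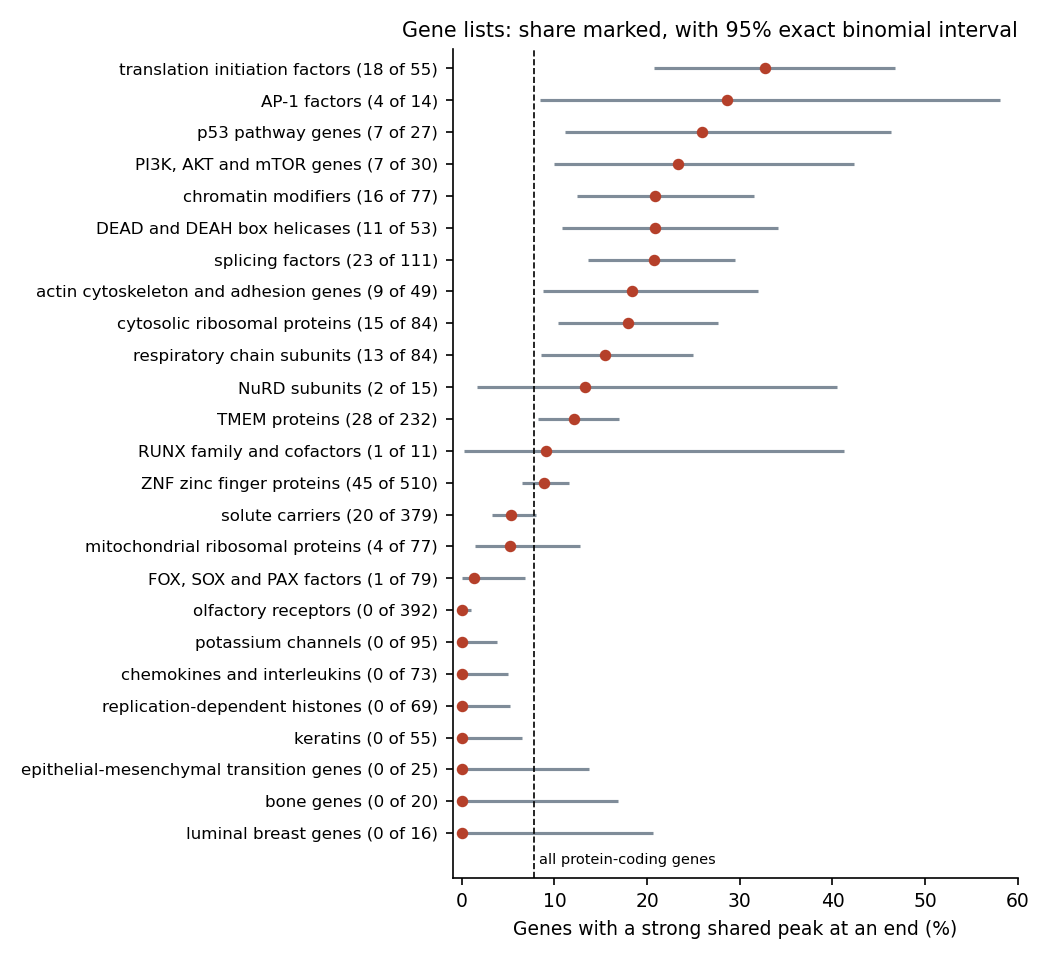
Share of genes marked (x, %) for the 17 lists whose interval did not hold the share of all protein-coding genes and for 8 others described in the text. Points are shares, bars exact 95% binomial intervals, and the dashed line is at 7.74%. Translation initiation factors stand highest at 32.7%, and 8 lists have no marked gene.

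The CCAAT box had the largest difference between strong and lower shared peaks, in percentage points, among the 16 motifs counted. It was searched in windows from 250 bases before to 50 bases after the start, 1 window a gene, for genes with a strong shared peak within 1 kb of the start of the window (1253 windows), with a lower shared peak there (5475) and for all 15811 windows of protein-coding genes. CCAAT or ATTGG stood in 54.3% (51.5 to 57.1) of windows with a strong shared peak, 38.7% (37.4 to 40) with a lower one and 36.4% of all windows. At least 2 boxes stood in 28.9% (26.4 to 31.5) of windows with a strong shared peak and in 12.5% (12 to 13) of all. With a lower shared peak they stood in 18.5% (14.9 to 22.5) where the RUNX2 score alone reached 20. The share was 21.0% (18.9 to 23.4) where the MTA1 score alone did and 12.3% (11.3 to 13.4) where neither did. The same letters read backwards, TAACC, were in 20.1% (17.9 to 22.4) of windows with a strong shared peak, 18.8% (17.7 to 19.8) with a lower one and 20.7% (20.1 to 21.3) of all. As described for the printed promoters, several boxes can stand in 1 promoter, as in TIMM17A.

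The shares were also read within ranges of base composition, whose part in the difference was not tested. In windows of 55 to 65% GC the box was in 63.2% (58.8 to 67.5) with a strong and 45.1% (42.8 to 47.3) with a lower shared peak, and in windows of 65 to 75% GC in 52.1% (47.8 to 56.3) and 35.3% (33.3 to 37.4). Under 55% GC they were 51.7% (40.8 to 62.6) and 46.7% (42.8 to 50.6), and from 75% they were 30% (22 to 39) and 25.7% (22.6 to 29.0), with intervals that overlapped. The median GC content was 65.7% at marked genes and 65.3% at genes with a lower shared peak only, with a window for 85.2% and 83.6% of these genes. For genes with no shared peak only 75.8% had a window, so comparisons of sequence with that group are void, and for all protein-coding genes the share was 79.2%. Most of all windows had no shared peak, so the shares over all windows are given as a description, and lower shared peaks are the comparison.

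A strong score in 1 list went with values in between. The box stood in 42.5% (37.8 to 47.3) of 433 windows where the RUNX2 score alone reached 20, in 47.6% (44.8 to 50.3) of 1316 where the MTA1 score alone did and in 35.2% (33.6 to 36.7) of 3726 where neither did. The box was most frequent 50 to 110 bases before the start in both kinds of promoter, with 12.2 to 13.6 boxes per 20 bases in 100 windows with a strong shared peak. Further upstream, between 240 and 160 bases before the start, it was in 22.8% (20.5 to 25.3) of windows with a strong shared peak and 10.7% (10.2 to 11.1) of all. There it was in 11.8% (8.90 to 15.2) of windows where the RUNX2 score alone reached 20. The share was 13.7% (11.9 to 15.7) where the MTA1 score alone did and 9.77% (8.83 to 10.8) where neither did. Of 1259 boxes in windows that a strong RUNX2 peak overlapped, 1217 (96.7%) lay inside the peak, which covered 84.3% of the bases of these windows. The 84.3% is taken over the whole window, while the boxes were spread unevenly along it. The part of position in the difference between these shares was not tested.

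**Figure D4:**
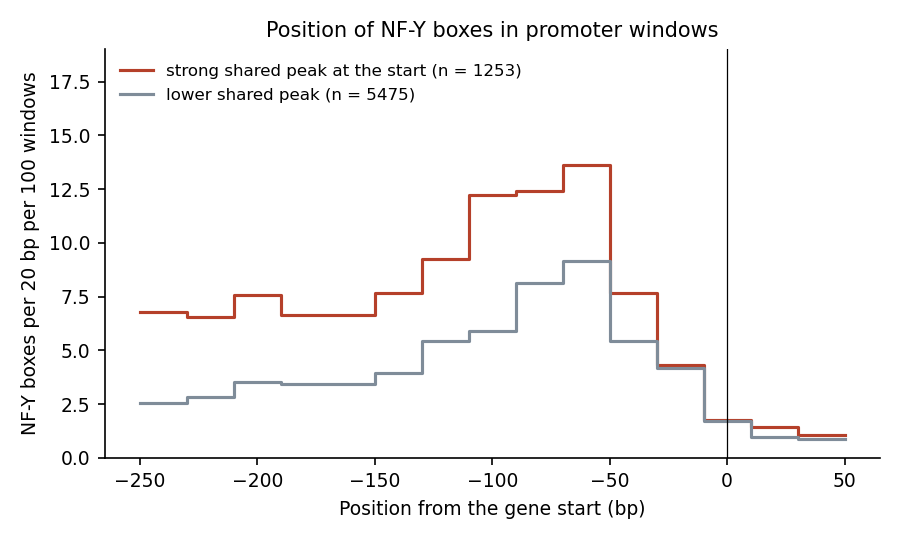
CCAAT boxes, labelled by their factor NF-Y, per 20 bases in 100 promoter windows (y) by position from the gene start (x, bp), for 1253 windows with a strong and 5475 with a lower shared peak. Windows with a strong shared peak hold more boxes at every position up to about 30 bases before the start, where the lines meet.

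The RUNX core was more frequent at promoters with higher RUNX2 scores, and no such rise was seen by MTA1 score up to 50. TGTGGT or ACCACA was in 11.2% (9.48 to 13.0) of windows with a strong shared peak and 8.47% (7.75 to 9.24) with a lower one, the comparison. The share over all windows was close to the first, at 11.0% (10.6 to 11.5), but most of those windows had no shared peak. Across all promoters with a shared peak the share was 6.37% (5.14 to 7.79) at RUNX2 scores of 3 to 7, 8.59% (7.5 to 9.77) at 10 to 20, 15.3% (12.5 to 18.5) at 30 to 50 and 20% (13 to 28.7) from 50. By MTA1 score it was 9.31% (7.39 to 11.5) at 3 to 7 and 8.40% (6.76 to 10.3) at 30 to 50, and from 50 it was 12.9% (8.69 to 18.2). The letters in reverse, TGGTGT, gave 7.96% (6.59 to 9.51) at RUNX2 scores of 3 to 7 and 6.63% (4.76 to 8.96) at 30 to 50.

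Among strong shared peaks alone the RUNX core was in 7.93% (6.00 to 10.2) of 668 windows at RUNX2 scores of 20 to 30, 14.7% (11.7 to 18.1) of 490 at 30 to 50 and 15.8% (9.12 to 24.7) of 95 from 50. The reversed letters were in 10.3% (8.13 to 12.9), 5.71% (3.83 to 8.15) and 7.37% (3.01 to 14.6), so they did not rise. Where only the RUNX2 score reached 20 the core was in 15.7% (12.4 to 19.5) of windows, and where only the MTA1 score did it was in 6.76% (5.47 to 8.26). The CCAAT box, by contrast, was more frequent at high scores in both lists, from 34.4% (31.9 to 37.0) to 60.9% (51.1 to 70.1) by RUNX2 score and from 27.7% (24.6 to 30.9) to 55% (48 to 61.9) by MTA1 score. The score ranges and the reversed letters were chosen after the motif shares had been seen.

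**Figure D5:**
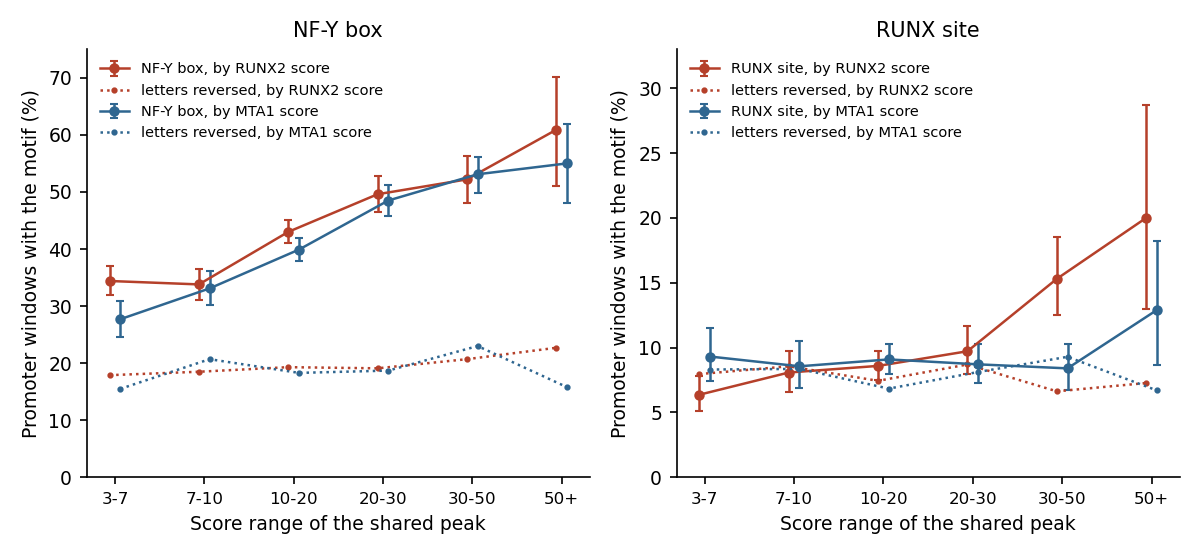
Share of promoter windows (y, %) with the CCAAT box of NF-Y (left) or the RUNX core (right) by score range of the shared peak (x), for RUNX2 and MTA1 scores, with exact 95% intervals, and for the same letters reversed (dotted, without intervals). The CCAAT share is higher at high scores of both lists, while the RUNX share reaches 20% in the highest RUNX2 range and 12.9% in the highest MTA1 range.

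Of the other motifs, the GC box GGGCGG was in 81.7% (79.5 to 83.8) of windows with a strong shared peak, 73.2% (72.0 to 74.4) with a lower one and 58.3% of all. The short cAMP response site TGACGT was in 16.1% (14.1 to 18.3), 12.9% (12.1 to 13.9) and 9.65%. The ETS core CCGGAA was in 32.9% (30.3 to 35.6) and 34.9% (33.6 to 36.1) of windows with a strong and a lower shared peak, and the NRF1 site GCATGCGC in 7.98% (6.54 to 9.62) and 6.61% (5.97 to 7.30), both above the 22.7% and 4.28% of all windows. The AP-1 site TGANTCA, to which JUN and JUND bind, was in 3.91% (2.91 to 5.14) of strong, 4.18% (3.67 to 4.75) of lower and 5.70% of all windows. TATA boxes (TATAAA) were in 2.87% (2.02 to 3.96), 4.95% (4.39 to 5.56) and 9.75%. In 9 of 16 motifs counted the interval for strong shared peaks lay above the share of all windows. In 5 it lay above that of windows with any shared peak: the CCAAT box, the GC box, the short cAMP response site and the RUNX core with and without a free base (TGNGGT). The count against all windows is a description, since most of those windows had no shared peak. A match of letters is not a bound site, and all motifs were read on both strands.

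Chromosome 19 had the highest share of marked genes. There 225 of 1451 protein-coding genes were marked (15.5%, 13.7 to 17.5) and 34.7% of those with any shared peak. The many ZNF genes of this chromosome did not carry it, with 18 of 250 marked (7.20%, 4.32 to 11.1) against 207 of the 1201 others (17.2%, 15.1 to 19.5). Chromosome 14 followed with 11.1% (8.69 to 13.9), and the X chromosome was lowest with 2.59% (1.63 to 3.90). No input library was analysed here, so the copy number of these chromosomes in the cell line and the protein signal cannot be told apart.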

How the data were processed

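CUT&Tag peak lists of untreated MDA-MB-231 cells were used, 1 list per antibody. The authors deposited the position and a score of each peak, and the scale of the score, any control and the threshold were not given in the sources used here. The processing notes of the submitters name CASAVA 1.4, Bowtie 0.12.8, MACS, MACS2 and hg19 without a role, the labels and the methods name different antibody suppliers, and the labels describe adaptor ligation. The positions were checked against RefSeq GRCh38.p14: 13.2% of RUNX2 and 19.1% of MTA1 peaks were centred within 1 kb of a known gene start, against 1.66% and 1.77% after a move of 100 kb. A start was known for 15811 of 19970 genes. A list that holds only peaks above its threshold cannot tell an absent from a weak signal.

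Peaks were joined by an overlap of at least 1 bp, taking the highest-scoring partner, and ranked by the lower of their 2 within-list score percentiles. Named genes were those of the 25 highest peaks, the 5 highest in either list, the 5 nearest each side of the limit, up to 8 marked genes per list, genes with 2 or more peaks, and the targets of the study. Some of these genes are not reported here. Far-end and head-to-head examples and the further symbols given without scores were picked after their values were seen. Members and gene lists were chosen with earlier results of these data known, and 2 motifs held by nearly every window were left out of the motif count. The counts of lists and motifs above a background, and that omission, were decided after the shares were seen. Shares carry exact (Clopper-Pearson) 95% intervals, and no p-value was computed. The limit given for a share of 0 is 3 counts. The peak selection was tested on simulated data. Alternatives were other score limits, overlaps, windows, peak centres, merging and backgrounds. Python 3.11.15, pandas 2.3.3, numpy 2.4.6, scipy 1.17.1 and matplotlib 3.10.9 were used.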

Additional observations from a re-analysis of the deposited data

How the results depend on the processing

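With a score limit of 15 there were 2162 strong shared peaks and 2612 marked genes, and with a limit of 30 there were 400 and 509. At a limit of 30 the number of gene lists above all genes fell from 11 to 4, 2 of which were among the 11 (translation initiation factors and TMEM proteins), and 52.1% of marked genes held a RUNX2 peak inside, against 48.7%. With genes that had any shared peak as background, 1 gene list and 5 motifs were above, against 11 and 9, and of the 5 only the CCAAT box, the GC box and the short cAMP response site were among the 9. A window of 500 bp gave 20.4% of peaks at the ends of 2 or more genes and 98.3% at starts, and a window of 3 kb gave 33.6% and 94.1%, with a RUNX2 peak inside 51.4% of marked genes. Taking the start of the gene only left 10 lists above, 9 of them among the 11, without AP-1 factors and cytosolic ribosomal proteins. Of 585 single shares of gene lists recomputed, 50 moved out of their interval, 28 of them at the limit of 30, and of 32 single motif shares 5 did. The remaining counts and shares above stayed within 1.5 times or inside their interval. The alternatives for peaks inside genes and, except for the window of 500 bp, for shared ends were chosen after seeing the data. No paired analysis was possible because each antibody has 1 library. Depth is unknown, so a peak missing from a list may be weak or absent.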

Other observations

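Non-coding neighbours were as common at strong as at lower shared peaks. The end of a lncRNA gene was within 1 kb of 20.5% (exact 95% interval 18.3 to 22.9) of strong and 20.7% (19.7 to 21.6) of lower shared peaks, a named divergent transcript of 5.05% (3.90 to 6.42) and 4.76% (4.27 to 5.29), and a miRNA gene of 1.28% (0.735 to 2.08) and 1.22% (0.972 to 1.51).

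Inside genes, more than 1 kb from both ends, marked genes of 50 to 150 kb held a RUNX2 peak in 81.7% (77.2 to 85.6), against 74.3% (72.1 to 76.4) of genes with a lower shared peak only. At 5 to 20 kb the shares were 25.4% and 26.1%, and at 20 to 50 kb 56.2% and 53.2%. Over 150 kb they were 93.2% and 92.4%. For MTA1 peaks the shares were 66.9% (61.6 to 71.8) and 64.7% (62.3 to 67.0) at 50 to 150 kb and 85.4% and 86.5% over 150 kb. The median length was 25.6 kb for marked genes and 29.5 kb for genes with a lower shared peak only.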
